A study of Mus musculus with 8 samples.

Results

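The enzymes that write, copy and remove DNA methylation were followed in mouse embryonic stem cells through the probe sets annotated to 9 genes: Dnmt1, Dnmt3a, Dnmt3b, Dnmt3l, Uhrf1, Tet1, Tet2, Tet3 and Tdg. The genes were chosen by name, with earlier results of these data known, from an array that gives 18194 genes probe sets of their own. The platform annotation gave 20 probe sets to 8 of them alone, of 45037 on the array: 5 to Dnmt3a, 4 to Tet1, 3 to Dnmt1, 2 each to Dnmt3b, Uhrf1 and Tet2, and 1 each to Dnmt3l and Tet3. Tdg had none of its own, since its 3 probe sets were annotated jointly to Tdg and its pseudogenes Tdg-ps and Tdg-ps2, so their signal cannot be assigned to the gene. All 23 passed the filter on low signal, as did 43439 probe sets of the array.

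Cells labelled Rex-1 KO, lacking by their label the zinc finger factor that Zfp42 encodes, were compared with wild-type J1 cells. Both were grown in serum-containing medium on gelatin-coated dishes, with leukemia inhibitory factor (LIF), the cytokine that maintains undifferentiated growth, or without it. Each of the 4 groups (Rex-1 KO without LIF, Rex-1 KO with LIF, J1 without LIF and J1 with LIF) had 2 Affymetrix arrays, called here the first and the second array after the letter r in the title of the second. The protocol text gives 12 hours without LIF, and no source used here gives the number of Rex-1 KO clones. For the Rex-1 KO arrays without LIF the titles were followed, because their growth text speaks of added LIF.

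DNMT3A and DNMT3B are the de novo methyltransferases that set methyl groups on unmethylated CpG sites, and DNMT3L is their catalytically inactive partner, abundant in embryonic stem cells and germ cells. DNMT1 copies the pattern onto the new strand after replication, guided by UHRF1, which binds hemimethylated DNA. The TET dioxygenases oxidise 5-methylcytosine, and TDG excises the most oxidised forms so that base excision repair restores cytosine. In mouse embryonic stem cells Dnmt3a is known to be made mostly as a short isoform from an internal promoter, TET1 and TET2 are the prominent TET enzymes, and levels of the de novo enzymes are known to increase as cells leave the naive state for the primed epiblast state.

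The gene starts are shown first because these genes are themselves a place where CpG sites lie, and because Dnmt3a, on which the results turn, has several starts. Its probe sets could not be assigned to them, since no probe positions were available. RefSeq promoters of build GRCm38.p6, 250 bases before to 50 bases after a start, were found for all 9 genes, 16 starts in all. Capitals mark each CG dinucleotide.
Dnmt3a, most upstream start, chr12:3806730-3807029, plus strand: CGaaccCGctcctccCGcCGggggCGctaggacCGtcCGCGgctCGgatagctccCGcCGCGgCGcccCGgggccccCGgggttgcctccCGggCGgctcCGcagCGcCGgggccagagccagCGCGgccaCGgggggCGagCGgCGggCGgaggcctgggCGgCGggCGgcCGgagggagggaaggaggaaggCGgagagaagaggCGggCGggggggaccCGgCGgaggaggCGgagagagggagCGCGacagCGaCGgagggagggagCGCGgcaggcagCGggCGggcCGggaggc
Dnmt3a, internal start, chr12:3891494-3891793, plus strand: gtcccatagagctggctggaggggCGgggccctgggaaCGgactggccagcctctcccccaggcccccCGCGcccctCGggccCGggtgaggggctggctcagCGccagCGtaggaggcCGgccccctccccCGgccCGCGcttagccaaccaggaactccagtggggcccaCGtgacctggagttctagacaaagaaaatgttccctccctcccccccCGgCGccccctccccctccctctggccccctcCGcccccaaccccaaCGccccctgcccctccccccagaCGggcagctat
Dnmt3l, first start, chr10:78042037-78042336, plus strand: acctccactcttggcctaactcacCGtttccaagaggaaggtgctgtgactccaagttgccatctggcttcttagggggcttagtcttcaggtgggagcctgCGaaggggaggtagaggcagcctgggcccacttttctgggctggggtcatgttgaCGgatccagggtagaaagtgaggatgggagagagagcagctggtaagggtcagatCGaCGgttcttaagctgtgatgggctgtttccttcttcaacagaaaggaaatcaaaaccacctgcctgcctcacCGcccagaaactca
Tet2, chr3:133544341-133544640, minus strand: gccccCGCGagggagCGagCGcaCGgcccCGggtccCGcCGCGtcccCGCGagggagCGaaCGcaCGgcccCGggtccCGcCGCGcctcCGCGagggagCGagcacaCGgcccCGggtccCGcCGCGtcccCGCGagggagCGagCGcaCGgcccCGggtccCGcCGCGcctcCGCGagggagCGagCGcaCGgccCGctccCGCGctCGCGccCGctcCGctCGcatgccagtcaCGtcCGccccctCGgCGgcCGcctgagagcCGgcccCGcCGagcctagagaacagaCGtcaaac

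The Tet2 window held 57 CG dinucleotides, more than 99.8% of the 32851 mouse promoters in the table, and the upstream Dnmt3a window held 46. The internal Dnmt3a window held 18 and the first Dnmt3l window 6, against a median of 7 over all promoters. The 16 windows were searched on both strands for 4 sequence motifs. The STAT motif TTCNNNGAA occurred in 1 Dnmt3l and 1 Tdg window (8.3% of all promoters hold it), and GCCATNTT, the core that YY1 and Rex-1 recognise, occurred in none of them (6.05% of all promoters). The E-box CACGTG lay in the internal Dnmt3a window, 1 Dnmt3l window and the Tdg window (7.15% of all promoters). CCAAT occurred in 2 Dnmt1, 2 Uhrf1, 1 Tet3 and 1 Tdg window (37.4% of all promoters), and no match of one motif overlapped a match of another. A match is a description of these letters and no test of binding.

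The 8 arrays had median signals of 114.2 to 143.5. In the second Rex-1 KO array with LIF, 91.2% of probe sets reached a log2 signal of 4, against 85.2% to 87.4% elsewhere. That array was also the extreme one on principal component 1 (159.5, the other arrays -69.6 to 60.0), and the second array of J1 cells with LIF was so on component 2 (126.5, the other arrays -56.7 to 72.9). Zfp42 itself had log2 signals of 14.03 to 14.51 over all arrays, those labelled Rex-1 KO included, with a difference of -0.21 that was not called. No source used here places its probe set inside or outside the deletion, so it checks nothing about the labels. Stem cell markers were high on every array, with Pou5f1 at 13.23 to 13.57 and Sox2 at 13.44 to 13.88 on the log2 scale.

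The Dnmt3a signal was higher without LIF than with it in each line, and lower in Rex-1 KO than in J1 cells at each LIF state, in the group means of all 5 probe sets. Probe set 1423064_at measured 10.83 and 10.71 (log2 signal) in Rex-1 KO cells without LIF, 10.16 and 9.88 in Rex-1 KO cells with LIF, 11.27 and 11.17 in J1 cells without LIF, and 10.72 and 10.62 in J1 cells with LIF. J1 cells without LIF were highest, Rex-1 KO cells with LIF were lowest, and the 2 other groups lay together between them. Probe set 1423066_at had the same highest and lowest groups, with 10.24 and 10.51 in Rex-1 KO cells without LIF, 9.76 and 9.99 in Rex-1 KO cells with LIF, 10.67 and 10.86 in J1 cells without LIF, and 10.44 and 10.49 in J1 cells with LIF. Rex-1 KO cells without LIF and J1 cells with LIF overlapped in both probe sets.

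**Figure D1:**
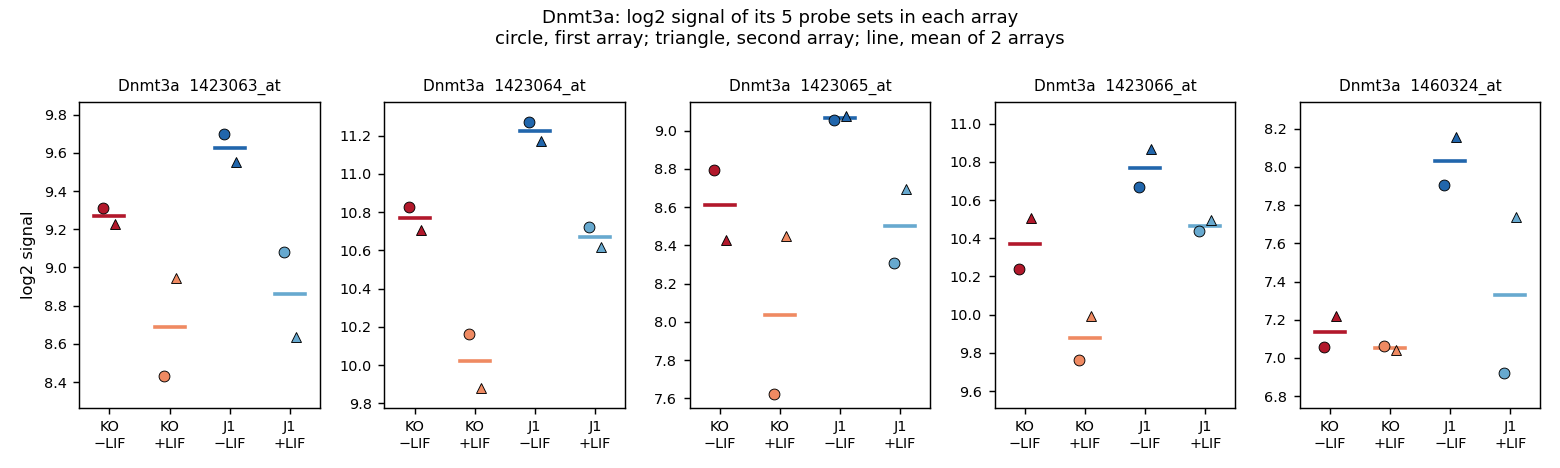
Log2 signal (y axis, a separate range in each panel) of the 5 Dnmt3a probe sets in the 4 groups (x axis; KO, Rex-1 KO; − and +, without and with LIF). Circles are first arrays, triangles second arrays and lines the means of 2 arrays; J1 cells without LIF are highest in every panel, from 7.90 and 8.16 in 1460324_at to 11.27 and 11.17 in 1423064_at.

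The other Dnmt3a probe sets varied more between the arrays of a group. Probe set 1423063_at had 9.31 and 9.23 in Rex-1 KO cells without LIF, 8.43 and 8.94 in Rex-1 KO cells with LIF, 9.70 and 9.55 in J1 cells without LIF, and 9.08 and 8.64 in J1 cells with LIF. All 4 of its values without LIF lay above all 4 with LIF. Probe set 1423065_at had 8.79 and 8.43 in Rex-1 KO cells without LIF, 7.62 and 8.45 in Rex-1 KO cells with LIF, 9.06 and 9.08 in J1 cells without LIF, and 8.31 and 8.70 in J1 cells with LIF. Probe set 1460324_at, the dimmest, had 7.06 and 7.22 in Rex-1 KO cells without LIF, 7.06 and 7.04 in Rex-1 KO cells with LIF, 7.90 and 8.16 in J1 cells without LIF, and 6.92 and 7.74 in J1 cells with LIF. In Rex-1 KO cells the groups without and with LIF overlapped for 1423065_at and 1460324_at.

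Averaged over both lines, the log2 difference without minus with LIF was 0.65 (SE 0.16) for Dnmt3a probe set 1423064_at, a 1.57-fold higher signal, and 0.67 (SE 0.21) for 1423063_at, 1.59-fold. It was 0.57 (SE 0.25) for 1423065_at, 0.40 (SE 0.17) for 1423066_at and 0.39 (SE 0.23) for 1460324_at. None passed in limma, adjusted over all 43439 probe sets (adjusted p = 0.9999 for each), and 2 of the 5 had an unadjusted p under 0.05. limma called 0% of all probe sets in this comparison, and 4.02% had an unadjusted p under 0.05. The 95% interval of 1423064_at was 0.25 to 1.05, unadjusted for the number of probe sets. The difference of 1423064_at was 0.61 within the first arrays and 0.69 within the second, a sign fixed by the lack of overlap in each line.

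In J1 cells alone all 5 Dnmt3a probe sets were higher without LIF, with no overlap between the groups, by 0.30 to 0.77 log2 units. In Rex-1 KO cells 3 of the 5 did not overlap, and the differences ran from 0.08 to 0.75. For the other 2 the sign turned within arrays, with -0.02 for 1423065_at within the second arrays and -0.009 for 1460324_at within the first. Of all probe sets, 13.2% were higher without overlap on withdrawal in J1 cells and 13.5% in Rex-1 KO cells. Among probe sets with a mean log2 signal of at least 8 these shares were 12.7% and 14.3%. Of the 800 genes with at least 5 probe sets, 0.125% had all of them higher without overlap in J1 cells, which was 1 gene, Dnmt3a itself. By sign alone the pattern was common: 8.75% of the 800 genes had only positive averaged LIF differences. Probe sets of a gene read RNA of the same gene and are not independent, and this count was made after the values of Dnmt3a were seen. The interaction, the LIF difference in Rex-1 KO cells minus that in J1 cells, ran from -0.61 to 0.20 over the 5 probe sets, and none passed (adjusted p = 1.00, 0% of all probe sets called).

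Between genotypes, averaged over the LIF states, the log2 difference of Rex-1 KO minus J1 cells was -0.55 (SE 0.16) for Dnmt3a probe set 1423064_at, 0.681 of the J1 signal. It was -0.49 (SE 0.17) for 1423066_at, -0.58 (SE 0.23) for 1460324_at, -0.46 (SE 0.25) for 1423065_at and -0.26 (SE 0.21) for 1423063_at. None passed in limma (adjusted p = 0.871 to 0.985), 3 of the 5 had an unadjusted p under 0.05, and over all probe sets limma called 0% and 5.27% had an unadjusted p under 0.05. The interval of 1423064_at was -0.95 to -0.15. Within the first arrays its difference was -0.50 and within the second arrays -0.60, a sign fixed by the lack of overlap at each LIF state. The difference of 1423063_at was -0.52 within the first and -0.007 within the second.

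Without LIF, all 5 Dnmt3a probe sets were lower in Rex-1 KO than in J1 cells with no overlap, by 0.35 to 0.89 log2 units in size. With LIF, 2 of the 5 did not overlap and the differences ran from -0.65 to -0.17. With LIF the sign also turned within arrays for 2 of the 5, with 0.31 for 1423063_at within the second arrays and 0.14 for 1460324_at within the first. Of all probe sets, 13.4% were lower without overlap in the comparison without LIF and 14.5% in that with LIF, and among those with a mean log2 of 8 or more 14.3% and 15.8%. Of the 800 genes with at least 5 probe sets, 0.125% had all of them lower without overlap in the comparison without LIF, again 1 gene, Dnmt3a. By sign alone, 6% of them had only negative averaged genotype differences. This comparison and LIF withdrawal in J1 cells share the 2 J1 arrays without LIF, which held the highest Dnmt3a values, so the counts are not separate observations. Without the second Rex-1 KO array with LIF the averaged genotype difference of 1423064_at was -0.48 and the averaged LIF difference 0.58, whereas leaving out the second array of J1 cells with LIF gave -0.58 and 0.62. That second omission took the genotype difference of 1460324_at to -0.38.

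Markers of other cells were read beside these differences. The 10 fibroblast or feeder markers had a summed signal of 5199 and 5354 in Rex-1 KO cells without LIF, 4983 and 5062 in Rex-1 KO cells with LIF, 10788 and 5832 in J1 cells without LIF, and 9665 and 6209 in J1 cells with LIF. The sums were higher in J1 cells, mostly in the first arrays. The mean log2 signal of these markers overlapped between the lines, at 6.79 to 7.43 in Rex-1 KO arrays and 6.79 to 7.97 in J1 arrays. Of these markers 7 were lower and 3 higher in Rex-1 KO cells, with a median of -0.38, and 1 had an unadjusted p under 0.05 in limma. Over all arrays the brightest, Fn1 and Acta2, lay at 11.45 to 12.15 and 9.46 to 12.24 on the log2 scale, and the collagens Col1a1, Col1a2 and Col3a1 at 4.24 to 8.95, 7.48 to 9.26 and 4.74 to 6.97. Of the 8 stem cell markers 7 were lower without LIF, with a median of -0.20, against -0.01 over 17836 genes. In that comparison 2 of the 8 had an unadjusted p under 0.05, against 4.02% of all probe sets. The 8 extraembryonic endoderm markers summed to 756.6 to 1166 in Rex-1 KO cells and 663.4 to 915.0 in J1 cells, with 6 of 8 higher in Rex-1 KO cells (median 0.30, 2 with an unadjusted p under 0.05). The 5 measured neural markers summed to 2018 to 2207 in Rex-1 KO cells and 2022 to 2273 in J1 cells, with 3 of 5 lower in Rex-1 KO cells (median -0.54, 1 with an unadjusted p under 0.05). The 6 trophoblast markers summed to 560.2 to 757.3 in Rex-1 KO cells and 584.0 to 747.3 in J1 cells (median -0.04, 0 with an unadjusted p under 0.05). Of all probe sets, 5.27% had such a p in the averaged genotype comparison. The part of these marker lists in the Dnmt3a differences was not tested. In RNA of whole cultures, a change in the share of cells that express a gene and a change per cell cannot be told apart.

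The other de novo genes varied more with the array than with the group. Dnmt3b probe set 1449052_a_at had 13.11 and 12.48 in Rex-1 KO cells without LIF, 12.98 and 12.40 in Rex-1 KO cells with LIF, 13.03 and 13.56 in J1 cells without LIF, and 12.66 and 13.05 in J1 cells with LIF. The second array was lower than the first in both Rex-1 KO groups and higher in both J1 groups. Probe set 1418351_a_at had 10.51 and 9.67 in Rex-1 KO cells without LIF, 10.37 and 9.14 in Rex-1 KO cells with LIF, 10.10 and 10.50 in J1 cells without LIF, and 9.94 and 9.56 in J1 cells with LIF. The genotype difference of 1449052_a_at was 0.20 within the first arrays and -0.86 within the second, and that of 1418351_a_at 0.42 and -0.63, so the sign depended on the arrays. Averaged, they were -0.33 (SE 0.27) and -0.10 (SE 0.36). For LIF withdrawal both probe sets had positive differences within first and within second arrays, averaging 0.27 (SE 0.27) and 0.44 (SE 0.36).

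Dnmt3l, the inactive partner, had 12.51 and 12.21 in Rex-1 KO cells without LIF, 12.53 and 12.09 in Rex-1 KO cells with LIF, 12.41 and 12.22 in J1 cells without LIF, and 12.49 and 12.38 in J1 cells with LIF. All 4 groups overlapped. The averaged difference was -0.04 between genotypes, with a 95% interval of -0.51 to 0.43, and -0.04 for LIF withdrawal, with an interval of -0.51 to 0.43. These intervals do not reach a 2-fold difference in either direction before any adjustment, and they rest on 1 probe set and 2 arrays a group.

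None of the maintenance genes had a called difference. Dnmt1 probe set 1422946_a_at had 11.44 and 11.35 in Rex-1 KO cells without LIF, 11.16 and 11.31 in Rex-1 KO cells with LIF, 11.53 and 11.55 in J1 cells without LIF, and 11.46 and 11.54 in J1 cells with LIF. All 4 Rex-1 KO values lay below all 4 J1 values, as for 1.74% of all probe sets and 2.71% of those with a mean log2 of 8 or more, and the difference was -0.21 (SE 0.15, limma adjusted p = 0.985). The probe sets 1435122_x_at and 1447877_x_at, whose suffix marks possible cross-hybridisation, did not separate the genotypes. The first ranged from 10.81 to 11.05 over all arrays, with a difference of -0.04 (SE 0.16), and the second was 7.79 in the second Rex-1 KO array with LIF and 8.80 to 9.36 in the others. For LIF withdrawal the Dnmt1 differences were 0.04 to 0.36, each with an interval that includes 0.

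Uhrf1 probe set 1415810_at had 12.04 and 11.70 in Rex-1 KO cells without LIF, 11.90 and 11.84 in Rex-1 KO cells with LIF, 12.12 and 11.95 in J1 cells without LIF, and 11.82 and 12.03 in J1 cells with LIF. Its groups overlapped. Probe set 1415811_at had 10.70 and 10.90 in Rex-1 KO cells without LIF and 10.52 and 10.99 with LIF. In J1 cells it had 10.95 and 11.03 without LIF and 10.62 and 11.35 with LIF. Without LIF its Rex-1 KO values lay below its J1 values, as for 13.4% of all probe sets. The differences of 1415810_at were -0.11 (SE 0.17) between genotypes and 0.05 (SE 0.17) for LIF withdrawal, and those of 1415811_at were -0.21 (SE 0.24) and 0.03 (SE 0.24). Genes of S phase, the part of the cell cycle in which Dnmt1 and Uhrf1 act, were read beside them: of 13 measured, 7 were higher and 6 lower in Rex-1 KO cells, with a median difference of 0.03, and 0 were called in either comparison.

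**Figure D2:**
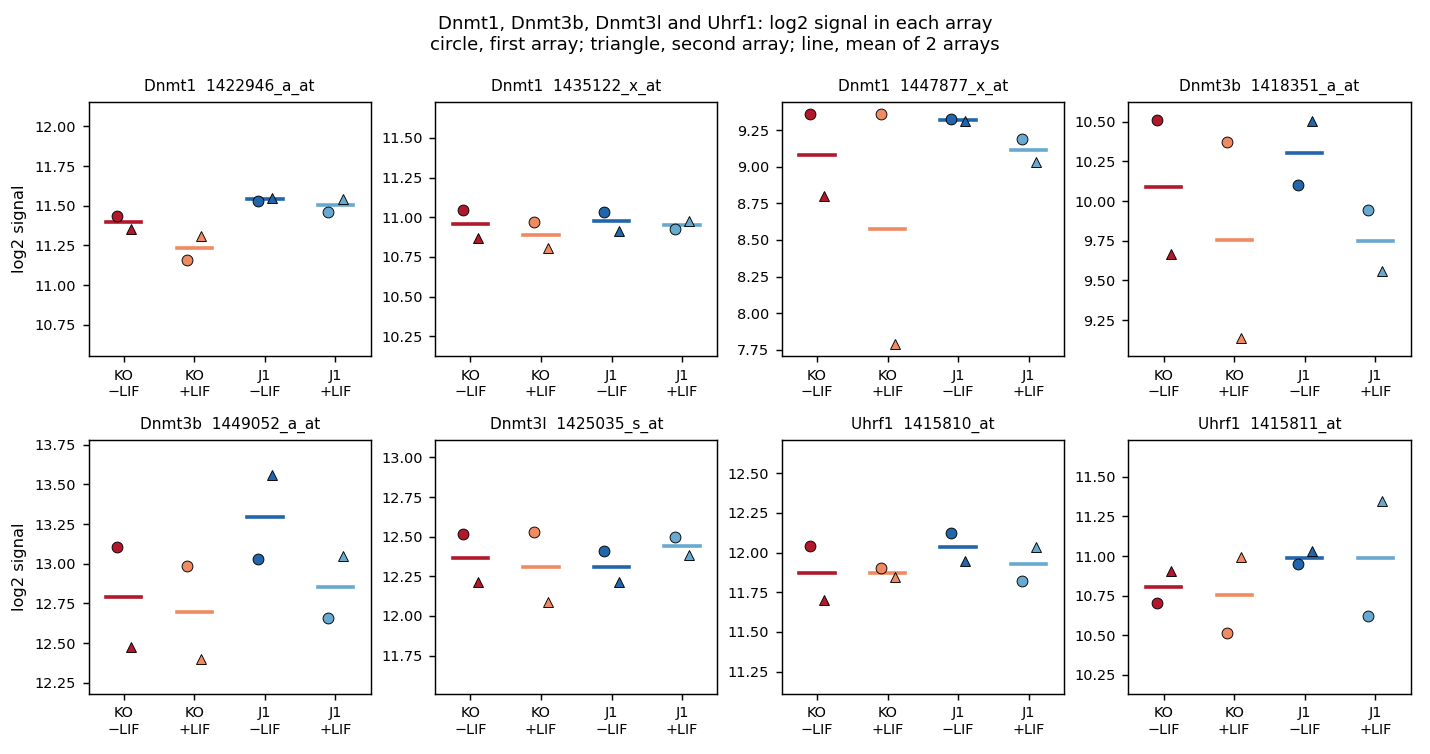
Log2 signal (y axis, a separate range in each panel) of the probe sets of Dnmt1, Dnmt3b, Dnmt3l and Uhrf1 in the 4 groups (x axis). Circles are first arrays, triangles second arrays and lines the means of 2 arrays; in Dnmt3b 1449052_a_at the triangles lie below the circles in Rex-1 KO cells and above them in J1 cells.

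Among the TET genes, Tet2 was higher in Rex-1 KO than in J1 cells in both probe sets. Probe set 1438781_at had 9.73 and 9.51 in Rex-1 KO cells without LIF, 9.89 and 9.58 in Rex-1 KO cells with LIF, 9.36 and 9.06 in J1 cells without LIF, and 9.46 and 8.96 in J1 cells with LIF. All 4 Rex-1 KO values lay above all 4 J1 values, as for 2.1% of all probe sets and 2.33% of those with a mean log2 of 8 or more. The difference was 0.47 (SE 0.21), 1.38-fold, and did not pass in limma (adjusted p = 0.972). It was 0.40 within the first arrays and 0.54 within the second, a sign fixed by the lack of overlap. When the second array of J1 cells with LIF was left out it was 0.34. Probe set 1455300_at had 11.03 and 10.54 in Rex-1 KO cells without LIF, 11.07 and 10.42 in Rex-1 KO cells with LIF, 10.58 and 10.43 in J1 cells without LIF, and 10.73 and 10.25 in J1 cells with LIF. Its groups overlapped when first and second arrays were pooled, with a difference of 0.27 (SE 0.25), and within first arrays and within second arrays Rex-1 KO cells were higher by 0.40 and 0.14. LIF withdrawal gave Tet2 differences of -0.05 (SE 0.21) and 0.02 (SE 0.25).

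Tet1 gave no single answer over its 4 probe sets. Probe set 1455425_at had 12.64 and 12.52 in Rex-1 KO cells without LIF, 12.84 and 12.61 in Rex-1 KO cells with LIF, 12.49 and 12.26 in J1 cells without LIF, and 12.72 and 12.92 in J1 cells with LIF. The J1 values without LIF lay below those with LIF, with a difference of -0.45 (SE 0.24, limma adjusted p = 1.00), as in 14.4% of all probe sets, and the averaged LIF difference was -0.30 (SE 0.17). The averaged LIF differences of 1419896_at and 1429448_s_at were -0.17 (SE 0.29) and -0.08 (SE 0.39). In all 4 groups the second array exceeded the first for both of these, by 0.37 to 0.75 and 0.60 to 1.17, more than any group difference they showed. The dim probe set 1419897_at was highest, at 7.72, in the second array of J1 cells with LIF and lowest in the second Rex-1 KO array with LIF. Between genotypes the Tet1 differences ran from -0.75 to 0.06.

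Tet3 was near the floor, at 4.62 and 4.76 in Rex-1 KO cells without LIF, 4.32 and 6.04 in Rex-1 KO cells with LIF, 4.64 and 5.39 in J1 cells without LIF, and 4.18 and 4.83 in J1 cells with LIF. The groups overlapped, and its interval for the genotype difference, -0.93 to 1.27, leaves room for a 2-fold difference.

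The 3 probe sets shared by Tdg and its pseudogenes all separated the groups without overlap in 2 comparisons. Probe set 1435715_x_at had 11.76 and 11.71 in Rex-1 KO cells without LIF, 11.84 and 11.63 in Rex-1 KO cells with LIF, 11.88 and 12.00 in J1 cells without LIF, and 11.65 and 11.70 in J1 cells with LIF. All 3 were higher without than with LIF in J1 cells with no overlap, by 0.24 to 0.26, as were 13.2% of all probe sets. All 3 were lower in Rex-1 KO than in J1 cells without LIF with no overlap, by 0.16 to 0.21 in size, as were 13.4% of all probe sets. As for Dnmt3a, these counts share the J1 arrays without LIF, and none passed in limma (adjusted p = 1.00 for each).

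**Figure D3:**
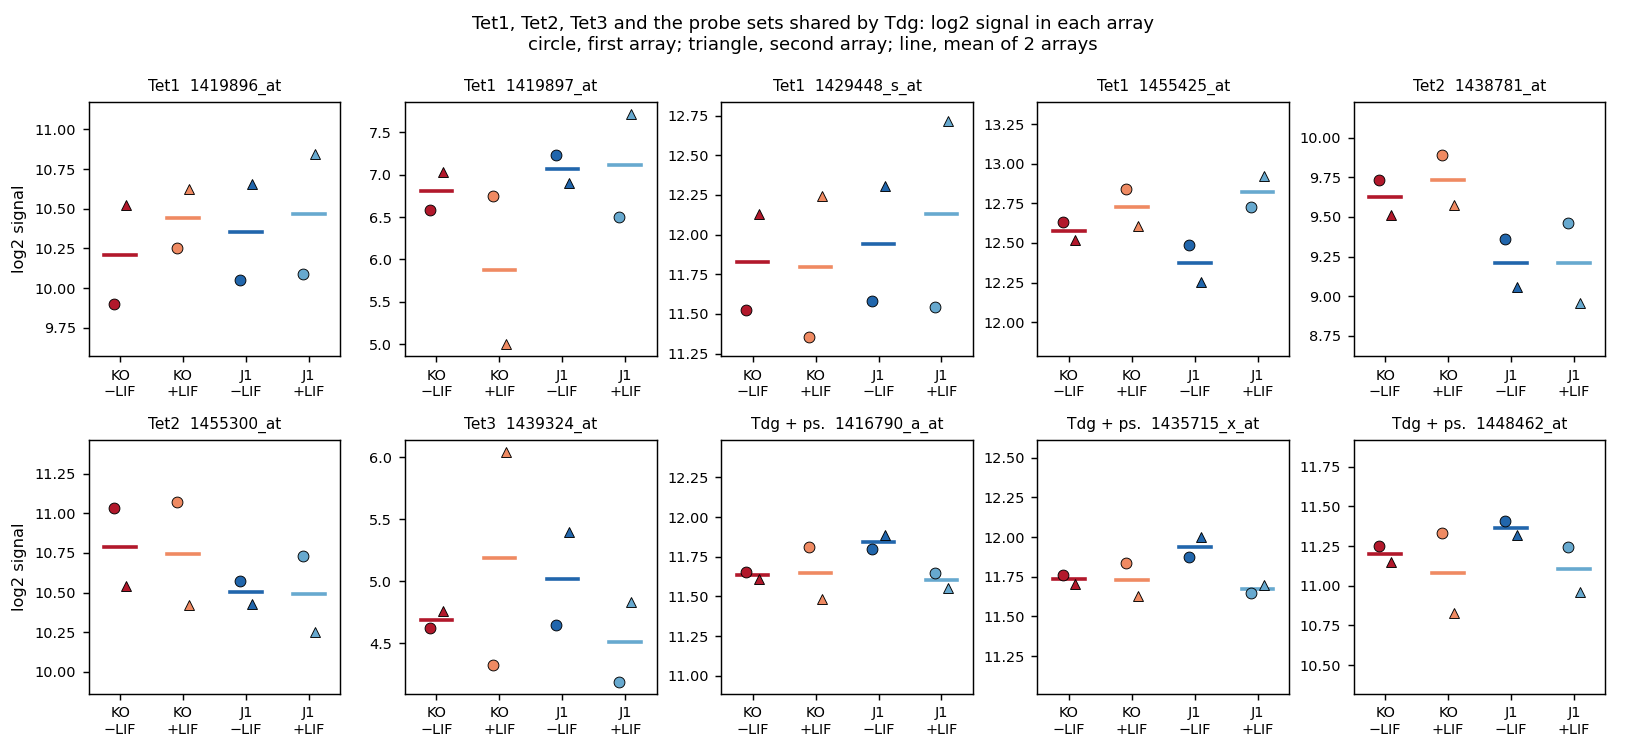
Log2 signal (y axis, a separate range in each panel) of the probe sets of Tet1, Tet2 and Tet3 and of the 3 shared by Tdg and its pseudogenes (Tdg + ps.) in the 4 groups (x axis). Circles are first arrays, triangles second arrays and lines the means of 2 arrays; Tet2 1438781_at lies at 9.51 to 9.89 in Rex-1 KO cells and 8.96 to 9.46 in J1 cells, and Tet1 1429448_s_at has its triangles above its circles in every group.

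Over the 20 probe sets of 1 gene, 16 had a negative genotype difference and 4 a positive one (median -0.21, against 0.02 over all probe sets tested). For LIF withdrawal 15 were positive and 5 negative (median 0.08, against -0.007). The number called by limma was 0 in all 7 contrasts. An unadjusted p under 0.05 was found for 1 member with LIF, 1 without LIF and 3 averaged in the genotype comparison, against 5.02%, 3.68% and 5.27% of all probe sets. For LIF withdrawal it was found for 1 in Rex-1 KO cells, 1 in J1 cells and 2 averaged, against 4.07%, 3.61% and 4.02%, and for 0 in the interaction, against 3.55%. Groups without overlap were found for 3 lower and 1 higher in Rex-1 KO cells with LIF, against 14.5% and 15.5% of all probe sets, and for 7 lower and 2 higher without LIF, against 13.4% and 15.9%. For LIF withdrawal they were found for 4 higher and 0 lower in Rex-1 KO cells, against 13.5% and 14.1%, and for 7 higher and 1 lower in J1 cells, against 13.2% and 14.4%. Dnmt3a supplied 5 of the 7 in both of the larger counts. At both LIF states there was no overlap for 3 lower (Dnmt1 1422946_a_at and 2 of Dnmt3a) and 1 higher (Tet2 1438781_at), against 3.2% and 3.57% (5% and 3.71% at a mean log2 of 8 or more). In both lines there was none for 3 higher, all of Dnmt3a, and 0 lower, against 2.2% and 2.59% (2.85% and 2.17% at that level). With all 4 arrays of a side pooled, 1 was lower and 1 higher in Rex-1 KO cells, against 1.74% and 2.1%, and 1 was higher and 0 lower without LIF, against 1.02% and 1.33%.

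**Figure D4:**
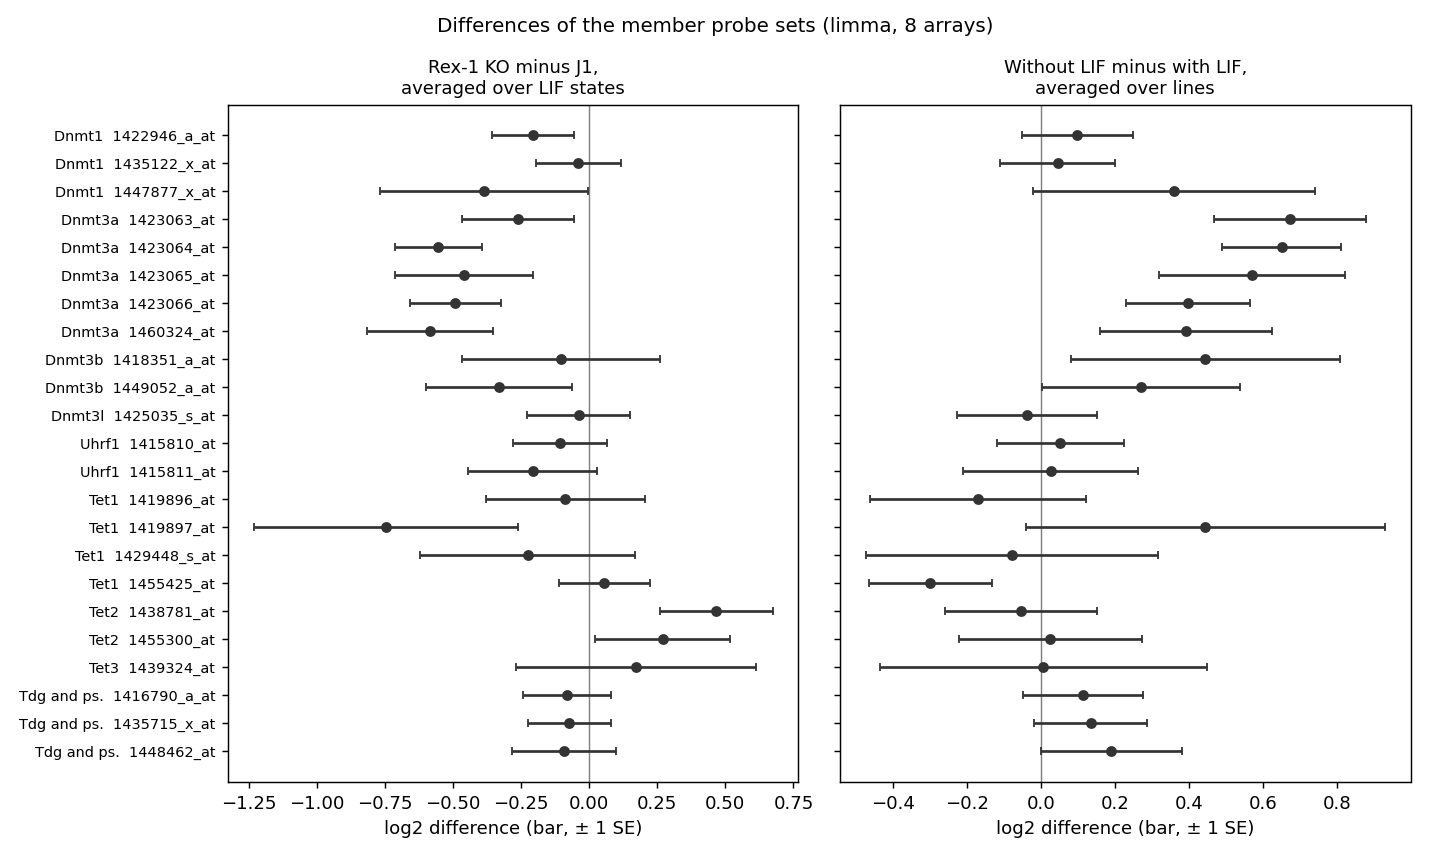
Log2 differences (x axis) of the 23 probe sets (y axis), Rex-1 KO minus J1 averaged over LIF states on the left and without minus with LIF averaged over lines on the right. Points are limma estimates over 8 arrays and bars 1 SE; all 5 Dnmt3a points lie below 0 on the left, from -0.58 to -0.26, and above 0 on the right, from 0.39 to 0.67.

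The arrays of a group differed as much as the groups for several members. Dnmt1 1447877_x_at, Dnmt3a 1423064_at, Dnmt3l, both Tet2 probe sets and the shared Tdg probe set 1448462_at were lower in the second array of all 4 groups, as were 11.2% of all probe sets. Dnmt3a 1423066_at, Uhrf1 1415811_at, Tet3 and 2 Tet1 probe sets were higher there in all 4 groups, as were 16.7%. In Dnmt3a that difference was -0.28 to -0.10 for 1423064_at and 0.06 to 0.27 for 1423066_at, smaller in size than their genotype differences at both LIF states. In Tet1 1429448_s_at it was 0.60 to 1.17. The labels do not say what the letter r marks.

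**Figure D5:**
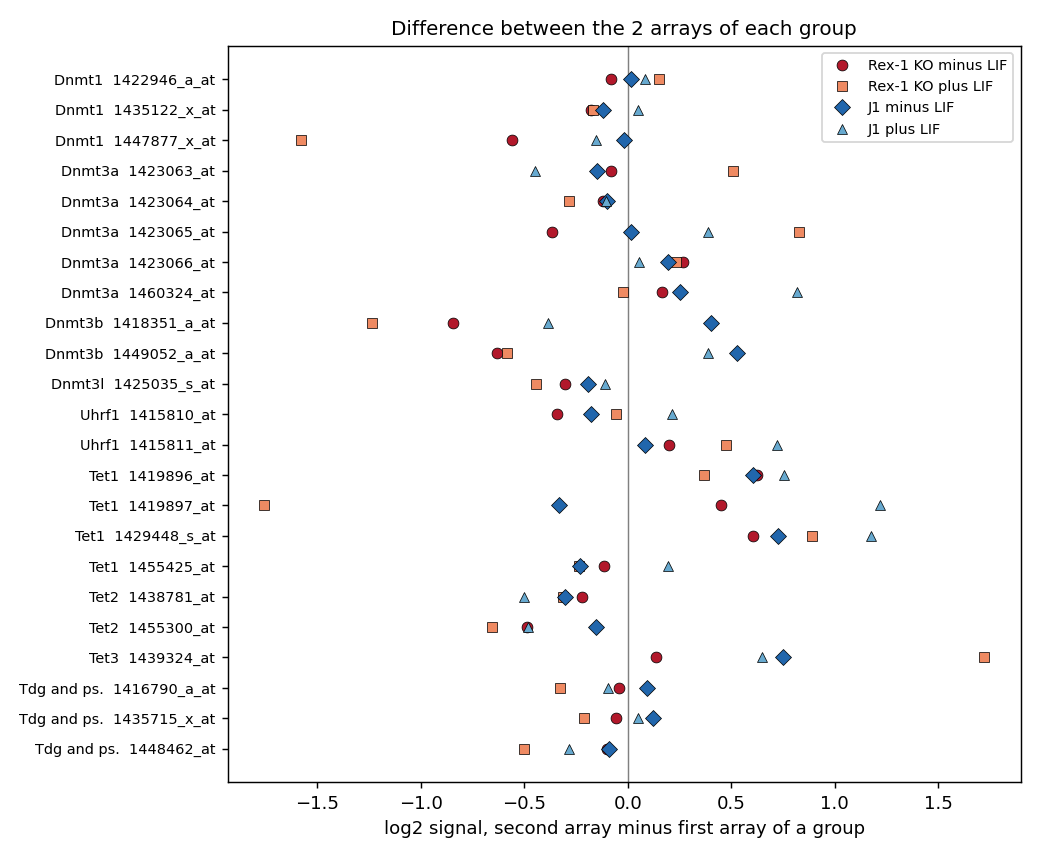
Difference in log2 signal between the second and the first array of a group (x axis) for the 23 probe sets (y axis), one symbol for each of the 4 groups. Symbols on one side of 0 in all groups mark a difference that goes with the array, as in Tet1 1429448_s_at (0.60 to 1.17) and Tet2 1438781_at (-0.50 to -0.22).

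Genes that work with these enzymes were read from lists of known function, each through its probe set of highest mean, and limma called 0 of them in both averaged comparisons. Of 16 measured cofactors and recruiters of methylation, such as Uhrf2, Hells, Trim28 and Dppa3, 13 were lower and 3 higher in Rex-1 KO cells (median -0.08, against 0.01 over 17836 genes), and 8 were higher and 8 lower without LIF. Of 9 TET cofactors and regulators, 6 were lower in Rex-1 KO cells, and the one beyond 3 SE was Gadd45g, a stress-inducible protein linked to DNA demethylation, at -0.72 (SE 0.19, adjusted p = 0.866). For LIF withdrawal, averaged over lines, the Gadd45g difference was 0.54 (SE 0.19). Of 10 base excision repair genes 5 were higher and 5 lower in Rex-1 KO cells, with a median of -0.01. All 6 measured methyl-CpG readers had negative genotype differences (median -0.23). The one beyond 3 SE was Mbd2, a reader that recruits a deacetylase complex, at -0.62 (SE 0.17, adjusted p = 0.871), with all Rex-1 KO values below all J1 values, as for 1.74% of all probe sets and 2.71% of those with a mean log2 of 8 or more.

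Germline genes known to be silenced by DNA methylation were read as a further list. Of 15 measured, 12 were higher in Rex-1 KO cells and 3 lower, with a median difference of 0.43 against 0.01 over all genes, and 0 were called. Their mean log2 signal was 8.44 to 8.55 in the 4 Rex-1 KO arrays and 7.76 to 8.24 in the 4 J1 arrays. How often other lists of genes separate the lines in this way was not computed. The list gave signal in both lines, with 0 or 1 of the 15 genes under log2 4 on each J1 array. Taf7l, a germ cell transcription factor subunit, differed by 0.65 (SE 0.18, limma adjusted p = 0.871), and Tex101, a germ cell surface protein of low signal, by 1.45 (SE 0.20, adjusted p = 0.610), and by -1.07 (SE 0.20, adjusted p = 0.775) for LIF withdrawal. DNA methylation itself was not measured, and the part of the methylation enzymes in these germline differences was not tested. The LIF targets were read beside the withdrawal. Socs3, the feedback inhibitor of the pathway, differed by -2.99 (SE 0.47) averaged over lines, and all 5 targets were lower without LIF in each line. Averaged over lines, limma called 0 of the 5. All 5 had an unadjusted p under 0.05, against 4.02% of all probe sets. Their median difference was -1.13, against -0.01 over 17836 genes.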

How the data were processed

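Total RNA of mouse embryonic stem cells was measured on 8 single-colour arrays. Each probe set has 1 deposited signal intensity per array, on a linear scale. GCRMA appears in the submitters' processing notes without a version or a role. Each deposited column had a mean of 500.0 with 2% trimmed from each end, columns were unequal in distribution and no log had been taken, so the step that made the intensity values is not known. Precision is limited by having 2 arrays a group.

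The 64 control probe sets were left out of 45101. Values were taken to log2 with no pseudocount, and a probe set was kept where 2 or more arrays reached log2 4 (43439). A model of 4 group means was fitted to the 8 arrays together in limma 3.58.1 (R 4.3.3), with eBayes without a trend and Benjamini-Hochberg adjustment over all probe sets, called under 0.05 in 7 contrasts. SE and 95% intervals come from this fit. It was tested on simulated data. Symbols come from the platform annotation (34945 probe sets with 1 symbol, 932 with several, 9160 with none listed) and 0 changed through the Entrez identifier in RefSeq GRCm38.p6. The arrays give no build, so no probe coordinates are given.

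Full statistics are given for member probe sets at 2 SE or more and for list genes at 3 SE or more. Some members below 2 SE are given with an SE for comparison. Members and lists were chosen with earlier results of these data known. Nothing says that the 2 arrays of a group are separate cultures beyond the series text calling them biological replicates, so the p-values rest on array-to-array spread, which may be technical. The alternatives covered the filter, normalization, pseudocount, variance prior, arrays in the fit, the letter r as a block, and each array left out. Same-letter arrays correlated in their deviations at 0.0496 to 0.198 over pairs of groups, all positive and 2 of 6 under 0.1. The titles do not state a pairing, so the main fit left the letter out. Its SE therefore holds any difference shared by same-letter arrays. For the averaged genotype difference of Tet1 1429448_s_at the SE was 0.39, and 0.16 with the letter as a block. For Dnmt3b 1449052_a_at it was 0.27, and 0.28 with the block.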

Additional observations from a re-analysis of the deposited data

How the results depend on the processing

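With 2 arrays a group, limma called 0 member probe sets in all 7 contrasts and under every alternative tried, and 0 of all probe sets except as follows. A trended and robust prior gave 1 for the averaged genotype contrast. The letter r as a replicate block together with a mean log2 of at least 8, an alternative chosen after seeing the data, gave 23 for genotype averaged, 3 with LIF and 4 without LIF, and no member was among them. The letter r as a replicate block alone gave 0, with adjusted p = 0.605 for the averaged genotype difference of Dnmt3a 1423064_at. The 17 member differences of at least 2 SE, from 5 Dnmt3a probe sets and Tet2 1438781_at, were recomputed 275 times: 0 changed sign and 0 became called. The count of signs is no test of stability. Alternatives in the filter, the variance prior and the block leave the estimate itself unchanged. Where groups do not overlap, leaving out 1 array cannot turn the sign. The averaged genotype difference of Dnmt3a 1423064_at ran from -0.63 to -0.48 (adjusted p 0.0903 to 0.9999, the lowest with the block and the higher floor), and its averaged LIF difference from 0.58 to 0.72 (0.151 to 0.9999). That of Tet2 1438781_at ran from 0.34 to 0.59. In single lines the range was wider, as for Dnmt3a 1460324_at on withdrawal in J1 cells, 0.29 to 1.11. Quantile normalization and median centring moved the median of all probe sets by under 0.1. Low signal limits Tet3 and Tet1 1419897_at.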

Other observations

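The probe sets most like the brightest probe set of a member were listed by Pearson r over the 8 arrays, among named probe sets whose mean log2 signal reached 8. They are the highest of all values compared and are given as a description, with arrays and their quality shared by both sides. For Dnmt3a 1423064_at they were Cdc26 (r = 0.965), Efnb2 (0.962) and Skil (0.958), of 13634 compared. For Dnmt3b 1449052_a_at they were Nudt19 (0.977), Usp8 (0.960) and Exoc5 (0.955), of 13636. For Tet1 1455425_at they were Lama1 (0.960), Arhgef39 (0.959) and Spry2 (0.954), of 13635, and for Tet2 1455300_at they were Irak1bp1 (0.986), Poldip3 (0.980) and Hus1 (0.976), of 13636. For Dnmt1 1422946_a_at they were Zfyve1 (0.987), Pald1 (0.979) and Ccnd2 (0.964), of 13635. For Dnmt3l they were Drg1 (0.977), Tgfb1 (0.973) and Btf3 (0.971), of 13637, and for Uhrf1 1415810_at they were Phpt1 (0.981), Top2a (0.935) and Ran (0.927), of 13636. Tet3 lay under that level.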
